A study of Mus musculus with 12 samples.

Results

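mmu-miR-185-5p, mmu-miR-501-3p and mmu-miR-140-3p are 3 mouse miRNAs that were chosen by their strong fall in the nucleus after 24 h of hypoxia, outside the large miRNA families, with no numeric limit in the choice. They are 3 of the 350 miRNAs in the deposited table, and all 3 had reads in every library. RNA from nuclear and cytoplasmic fractions of the C166 endothelial line (ATCC CRL-2581, derived from mouse yolk sac, with no transgene named in the labels) was analysed by small RNA sequencing. The groups are cytoplasm and nucleus of cells kept in normoxia (0 h) and of cells exposed to 1% oxygen for 2 h or 24 h, with 2 libraries in each of 6 groups. The 12 libraries come from 1 cell line only, and the study describes the 2 libraries of a group as biological replicates. The labels do not say whether they were separate cultures, so the p-values measure the spread between these libraries.

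A miRNA is cut from a hairpin that carries a 5p and a 3p arm, and the mature arm guides an Argonaute protein to RNAs that pair with its seed, bases 2 to 8. Most work on miRNAs concerns silencing of mRNA in the cytoplasm, but mature miRNAs and Argonaute proteins are also found in the nucleus of mammalian cells. miR-210 is the classical miRNA induced by hypoxia, through the hypoxia-inducible factors. miR-140 is best known from cartilage, where it is made from an intron of Wwp2, a ubiquitin ligase gene.

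The mature sequences of 2 of the 3 miRNAs are shown, with the seed in capitals, beside the miRNA of the reference that shares each seed, because a shared seed means overlapping predicted targets. Sequences are from RefSeq (GRCm38.p6), in which 301 of the 350 miRNAs matched.
mmu-miR-140-3p: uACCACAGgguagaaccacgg
mmu-miR-497b: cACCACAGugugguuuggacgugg
mmu-miR-501-3p: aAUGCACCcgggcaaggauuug
mmu-miR-500-3p: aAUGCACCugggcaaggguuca
mmu-miR-140-3p has 21 bases with 57.1% G and C, and mmu-miR-501-3p has 22 bases with 54.5%, against a median of 22 bases and 47.8% over the matched miRNAs. The seeds of mmu-miR-140-3p and mmu-miR-501-3p differ. Along their whole length mmu-miR-501-3p and mmu-miR-500-3p differ at 4 positions, C9U, A18G, U21C and G22A, counted from the 5′ end with the base of mmu-miR-501-3p first. mmu-miR-500-3p has no values here, and reads of such close copies may be shared by the alignment, so the value of mmu-miR-501-3p is uncertain in that respect. The hexamer AGUGUU, described as a nuclear import element in human miR-29b, was searched on the strand shown, is in neither mmu-miR-140-3p nor mmu-miR-501-3p, and is in 2 of the 301 matched miRNAs (0.664%). miRNAs without a match were not searched. The study reported the hexamer in miR-29b-3p, miR-199a-5p and miR-199b-5p, and proposes that it is no true signal for nuclear enrichment in this setting. Nothing is read from its absence here.

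The 3 hairpins lie on separate chromosomes, each inside an intron of a protein-coding gene on the same strand (GRCm38, GENCODE M21). Mir185 is at chr16:18327401-18327465 in Tango2, Mir501 at chrX:7241243-7241351 in Clcn5, and Mir140 at chr8:107551244-107551313 in Wwp2. Such a position is common, since 91 of the 220 hairpins that could be matched (41.4%) lie in an intron of a protein-coding gene on the same strand.

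The values below are normalized counts, which the authors obtained by alignment to miRBase release 20 and a DESeq2 size factor for each library. Nuclear libraries held 3379276 to 4375616 reads in the table and cytoplasmic libraries 4708753 to 7787926. Changes were fitted with limma on log2(normalized count + 1), and a miRNA was called at a 2-fold difference and a Benjamini-Hochberg adjusted p under 0.01 over the 350 miRNAs. The 3 miRNAs are not rare, so the fold changes are little compressed by this scale. mmu-miR-140-3p ranked 14th by mean normalized count (43762), mmu-miR-185-5p 79th (2435) and mmu-miR-501-3p 107th (1230). mmu-miR-501-3p had the fewest reads, 472 to 1572 per library, which gives an exact 95% Poisson interval of 4.98% to 9.13% on either side of the value. The interval was 2.93% to 7.22% for mmu-miR-185-5p and 0.796% to 1.37% for mmu-miR-140-3p, and covers counting error only.

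All 3 miRNAs had higher normalized counts in the nucleus than in the cytoplasm at 0 h and 2 h. At 24 h, with the deposited size factors, the nuclear value was lower and near the cytoplasmic one, which had moved by less than 2-fold. Both the nearness and the cytoplasmic change depend on the scaling. With total-count scaling the cytoplasmic log2 change was 0.92 for mmu-miR-185-5p, 0.50 for mmu-miR-501-3p and 0.25 for mmu-miR-140-3p, beside a median of 0.32 over all miRNAs. That scaling also moved the median log2 ratio of nucleus to cytoplasm at 24 h by -0.44. The libraries were made from equal RNA input, so these counts are relative within a library and do not give the amount in a compartment. The study's spike-in control was run for other miRNAs. The nuclear libraries of 0 h and 24 h chose these miRNAs, so their values are a description without a test. In bulk RNA, fewer cells that contain a miRNA and less of it per cell cannot be told apart.

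mmu-miR-185-5p had nuclear normalized counts of 4869 and 4560 at 0 h, 6176 and 4943 at 2 h, and 1076 and 1169 at 24 h. Both nuclear libraries of 24 h lay below all 4 earlier ones, by a wide margin, an order that was not counted over all miRNAs. The mean went from 4714 ± 218 (SD, n = 2) at 0 h to 1122 ± 66.1 (SD, n = 2) at 24 h, a log2 change of -2.07 (SE 0.17), or 4.20-fold lower. It was the fifth lowest change of the 350, and in rank of abundance mmu-miR-185-5p went from 60 and 65 in the nuclear libraries of 0 h to 107 in both of 24 h.

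mmu-miR-501-3p had nuclear normalized counts of 2040 and 2223 at 0 h, 1973 and 1608 at 2 h, and 704 and 735 at 24 h. Its libraries of 2 h lay below both of 0 h, and its libraries of 24 h below both of 2 h. The share of all miRNAs with such a stepwise order was not counted, and nothing is read from it. The mean was 2131 ± 129 (SD, n = 2) at 0 h and 719 ± 21.7 (SD, n = 2) at 24 h, a log2 change of -1.56 (SE 0.18), or 2.96-fold lower. In order of the nuclear change from the lowest, mmu-miR-501-3p was number 15.

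mmu-miR-140-3p had nuclear normalized counts of 67393 and 89252 at 0 h, 60891 and 57094 at 2 h, and 33669 and 32182 at 24 h. Its groups did not overlap, an order that was not counted over all miRNAs. The 2 libraries of 0 h were further apart than those of any other group of this miRNA. The mean was 78323 ± 15457 (SD, n = 2) at 0 h and 32925 ± 1051 (SD, n = 2) at 24 h, a log2 change of -1.24 (SE 0.15), or 2.36-fold lower. mmu-miR-140-3p was number 25 from the lowest, and ranked 9th and 10th in abundance in the nuclear libraries of 0 h and 17th in both of 24 h.

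**Figure D1:**
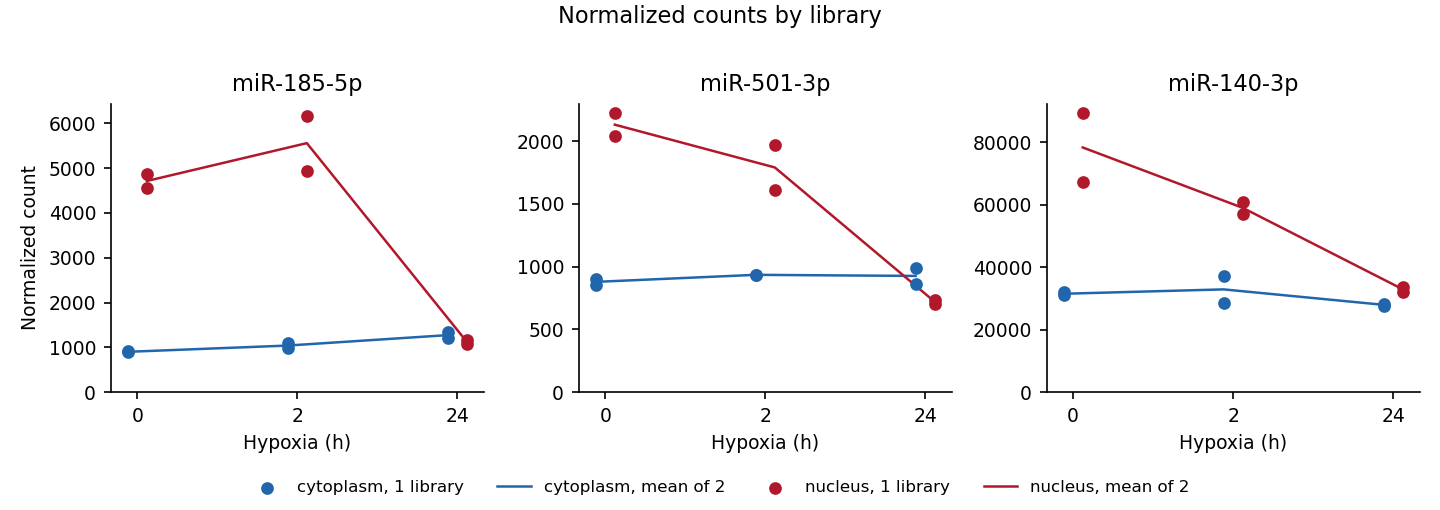
Normalized count (y axis, linear, from 0) against hours of hypoxia for each of the 3 miRNAs. Points are single libraries and lines join the means of 2 libraries, cytoplasm in blue and nucleus in red. The nuclear points of mmu-miR-185-5p drop from 4560 or more at 0 h and 2 h to 1169 or less at 24 h, while the cytoplasmic points stay between 891 and 1336.

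For all 3 miRNAs both nuclear libraries of 24 h lay below both of 0 h, which was also so for 131 of the 350 (37.4%), and nothing is read from this count since the same contrast chose them. Of all miRNAs, 46 (13.1%) were called lower in the nucleus at 24 h and 27 (7.71%) higher. The median log2 change of the 3 miRNAs was -1.56, beside -0.02 over the 350, of which the central 90% lay between -1.502 and 1.17. At 2 h the nuclear change was 0.23 (SE 0.17) for mmu-miR-185-5p, -0.26 (SE 0.18) for mmu-miR-501-3p and -0.40 (SE 0.15) for mmu-miR-140-3p on the log2 scale. From 2 h to 24 h the corresponding changes were -2.30, -1.31 and -0.84, so mmu-miR-185-5p was at its highest at 2 h, whereas the means of mmu-miR-501-3p and mmu-miR-140-3p were already lower then.

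As a description of the same nuclear libraries without a size factor, reads were set against those of another miRNA. miR-186-5p is the reference the study chose for its stable level, and had 1046 to 1453 normalized counts in the nuclear libraries. Reads of mmu-miR-185-5p per read of miR-186-5p were 3.99 and 4.36 in the nucleus at 0 h and 0.82 and 0.96 at 24 h. For mmu-miR-501-3p the nuclear ratio of 0 h, 1.67 and 2.13, stood against 0.54 and 0.60 at 24 h. For mmu-miR-140-3p it started from 55.2 and 85.3 at 0 h and was 25.7 and 26.3 at 24 h. These ratios use the counts that chose the 3 miRNAs and add no separate evidence.

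Several whole-library values moved with the nuclear decline, and their part in it was not tested. miR-21a-5p, the most abundant miRNA, took 37.4% and 45.1% of the nuclear reads at 0 h and 57.0% and 57.2% at 24 h. With miR-21a-5p taken out of the total used for scaling, the nuclear 24 h change of mmu-miR-185-5p was -1.61, that of mmu-miR-501-3p -1.11 and that of mmu-miR-140-3p -0.78, on a scale on which the median of all miRNAs was 0.43. This scaling gave 83 nuclear calls higher and 19 lower, and scaling by miR-186-5p gave 12 higher and 56 lower. Each scaling shifts all miRNAs of a library alike. The summed count of the 3 measured epithelial markers of 6 listed (the miR-200 family and miR-203-3p) was 253 to 266 in the nuclear libraries of 0 h, 98.2 to 121 at 2 h and 76.1 to 98.1 at 24 h. The 1 measured muscle marker of 3 listed, miR-206-3p, was at 452 to 635 in the nucleus at 0 h, 670 to 926 at 2 h and 271 to 363 at 24 h. The endothelial miR-126a-3p, 1 of 4 listed names, was at 332 to 397 in the nucleus at 0 h and 612 to 766 at 24 h, and none of 7 blood markers was in the table. In the nucleus the single liver marker was at 42.7 to 53.8 at 0 h and 21.8 to 30.2 at 24 h, and the single neural marker at 46.9 to 50.01 and then 78.4 to 82.5. In the cytoplasm miR-126a-3p went the other way, from 557 to 860 at 0 h to 476 to 487 at 24 h. The cytoplasmic epithelial sum went from 192 to 297 to 92.1 to 93.9, and miR-206-3p from 250 to 301 to 297 to 347. The liver marker went there from 71.8 to 155 to 30.2 to 33.2, and the neural marker from 35.1 to 50.4 to 34.0 to 35.5.

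In the cytoplasm, whose libraries took no part in the choice, none of the 3 miRNAs was called at 24 h against 0 h, where 48 of 350 (13.7%) were. mmu-miR-185-5p was higher in both libraries of 24 h, mmu-miR-501-3p was level and mmu-miR-140-3p was slightly lower, each by less than 2-fold.

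mmu-miR-185-5p had cytoplasmic normalized counts of 909 and 891 at 0 h, 1096 and 984 at 2 h, and 1210 and 1336 at 24 h. Each group lay above the one before, in the direction opposite to that in the nucleus at 24 h. The log2 difference of 24 h against 0 h was 0.50 (SE 0.18, limma adjusted p = 0.0328), or 1.41-fold, which did not pass the threshold. With total-count scaling, on which the median of all miRNAs was 0.32, it was 0.92 for mmu-miR-185-5p and 0.50 for mmu-miR-501-3p, and neither was called. Both cytoplasmic libraries of 24 h were above both of 0 h for 117 of the 350 miRNAs (33.4%), so the order of these 4 values is a frequent one. The order that includes 2 h was not counted over all miRNAs.

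mmu-miR-501-3p had cytoplasmic normalized counts of 901 and 856 at 0 h, 932 and 937 at 2 h, and 992 and 860 at 24 h. Libraries of 0 h and 24 h overlapped. The log2 difference at 24 h was 0.07 (SE 0.18, limma adjusted p = 0.742), and within 2 SE it lay between -0.29 and 0.43, which leaves out a change of the size seen in the nucleus.

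mmu-miR-140-3p had cytoplasmic normalized counts of 31054 and 31933 at 0 h, 28670 and 37115 at 2 h, and 28345 and 27549 at 24 h. Both libraries of 24 h were below both of 0 h by a small margin. The log2 difference was -0.17 (SE 0.19, limma adjusted p = 0.483), within 2 SE between -0.56 and 0.22. Its sign depended on the scaling, since it was 0.25 with total-count scaling and 0.14 with scaling by miR-186-5p.

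At 2 h none of the 350 miRNAs was called in the cytoplasm (0%) by limma, with 39 at an unadjusted p under 0.05 and 0 called by limma-voom. The log2 differences of 2 h against 0 h were 0.21 for mmu-miR-185-5p (SE 0.18, limma adjusted p = 0.771), 0.09 for mmu-miR-501-3p (SE 0.18, limma adjusted p = 0.907) and 0.05 for mmu-miR-140-3p (SE 0.19, limma adjusted p = 0.954). For comparison, the hypoxia reference miR-210-3p rose in both fractions at 24 h, from 1284 and 1206 to 6154 and 6195 normalized counts in the cytoplasm and from 1684 and 1758 to 12744 and 11948 in the nucleus. Of the 48 calls in the cytoplasm at 24 h, 14 were higher and 34 lower, a split that became 40 higher and 13 lower with total-count scaling, 17 and 20 with miR-21a-5p left out of that total, and 11 and 5 with scaling by miR-186-5p.

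**Figure D2:**
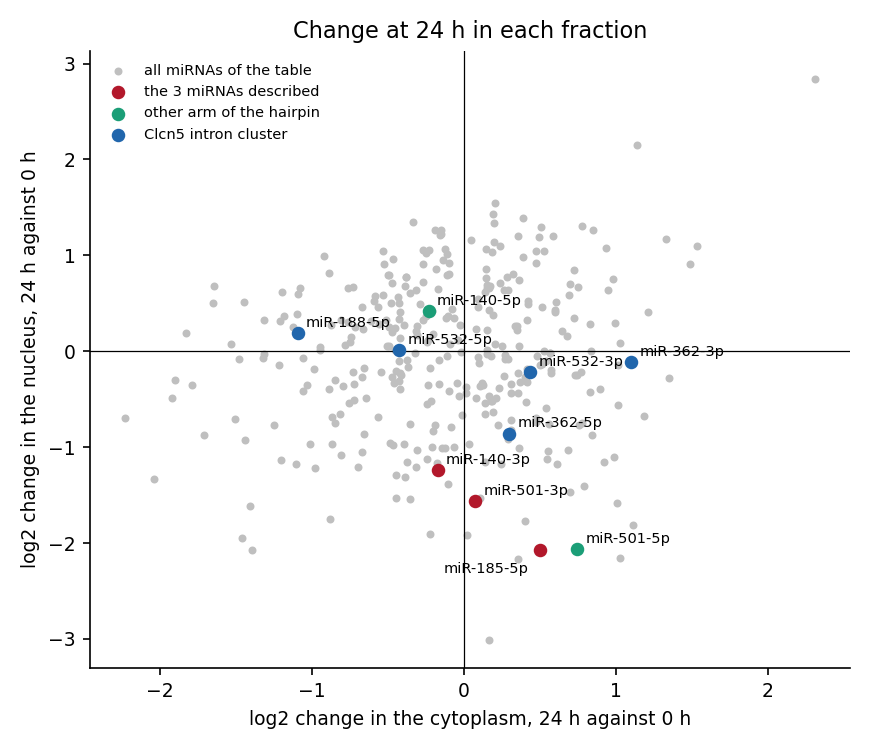
Log2 change at 24 h against 0 h in the nucleus (y axis) against that in the cytoplasm (x axis), 1 point for each of the 350 miRNAs, with the 3 miRNAs in red, the other arms of their hairpins in green and other measured miRNAs of the Clcn5 introns in blue. The red points lie at -1.24 to -2.07 in the nucleus and between -0.17 and 0.50 in the cytoplasm, and miR-140-5p lies at 0.42 in the nucleus.

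The difference between nucleus and cytoplasm at 2 h compares libraries outside the fall from 0 h to 24 h, by which the choice was read. Its spread was estimated over all 12 libraries, the choosing ones included. The choice names no starting time, and it favours miRNAs with a high nuclear level before 24 h. The p-values at 2 h are thus not fully separate from the choice. mmu-miR-185-5p was called higher in the nucleus, as were 55 of 350 miRNAs (15.7%). Its nuclear counts of 6176 and 4943 stood against cytoplasmic counts of 1096 and 984, a log2 difference of 2.41 (SE 0.16, limma adjusted p = 8.8e-10), or 5.32-fold. mmu-miR-501-3p was higher in the nucleus by 0.93 (SE 0.16, limma adjusted p = 8.52e-05), or 1.90-fold, with nuclear counts of 1973 and 1608 against 932 and 937. mmu-miR-140-3p was higher by 0.85 (SE 0.17, limma adjusted p = 0.00027), or 1.81-fold, with nuclear counts of 60891 and 57094 against 28670 and 37115. These last differences passed the adjusted p but stayed under the 2-fold limit, and an adjusted p under 0.01 with a higher nuclear level at any fold was found for 83 of 350 miRNAs (23.7%). Without the second nuclear library of 2 h mmu-miR-501-3p was called (1.08), and without the second cytoplasmic library of 2 h mmu-miR-140-3p was called (1.04). With miR-21a-5p left out of a total used for scaling, the differences were 2.00 for mmu-miR-185-5p, 0.52 for mmu-miR-501-3p and 0.44 for mmu-miR-140-3p. Over 22 alternatives the limma adjusted p ranged from 3.37e-05 to 0.0294 for mmu-miR-501-3p and from 0.000132 to 0.0237 for mmu-miR-140-3p. The 3 miRNAs had both nuclear libraries of 2 h above both cytoplasmic ones, which 139 of 350 had (39.7%). Of all calls at 2 h, 55 were higher and 70 lower in the nucleus, and 34 higher and 102 lower with miR-21a-5p left out of a total used for scaling.

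At 0 h and 24 h the same difference is given without a test, since these nuclear libraries chose the miRNAs. The log2 ratio of nucleus to cytoplasm for mmu-miR-185-5p was 2.39 (SE 0.16) at 0 h and -0.18 (SE 0.16) at 24 h. The ratio of mmu-miR-501-3p was 1.28 (SE 0.16) at 0 h and -0.36 (SE 0.16) at 24 h. The ratio of mmu-miR-140-3p was 1.30 (SE 0.17) at 0 h and 0.24 (SE 0.17) at 24 h. At 24 h both nuclear libraries of mmu-miR-185-5p and of mmu-miR-501-3p were below both cytoplasmic ones, as for 125 of the 350 (35.7%), and those of mmu-miR-140-3p above, as for 151 (43.1%). With the size factors, the ratio of mmu-miR-185-5p at 24 h, and that of mmu-miR-140-3p, was within 2 SE of 0. The 24 h change in the nucleus minus that in the cytoplasm was -2.57 for mmu-miR-185-5p, -1.64 for mmu-miR-501-3p and -1.06 for mmu-miR-140-3p, beside a median of 0.15 over the 350.

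**Figure D3:**
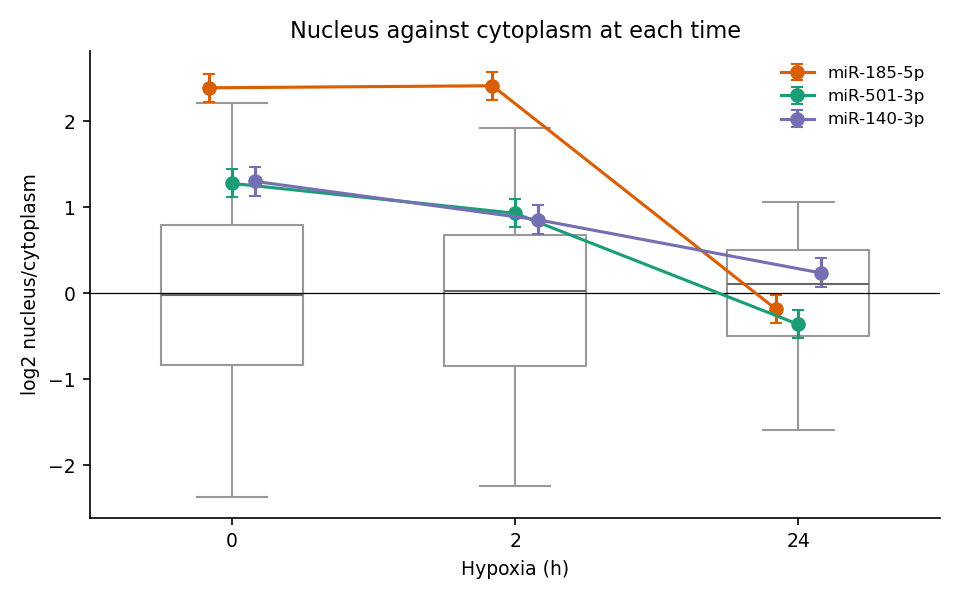
Log2 ratio of nucleus to cytoplasm (y axis) against hours of hypoxia, with points for the fitted value of each of the 3 miRNAs and bars of 1 SE. Grey boxes give the quartiles and median of all 350 miRNAs, with whiskers from the 5th to the 95th percentile; mmu-miR-185-5p goes from 2.39 at 0 h and 2.41 at 2 h to -0.18 at 24 h.

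A ratio of at least 1 on the log2 scale at 0 h and at 2 h that came within 0.5 of 0 at 24 h was found for 20 of 350 miRNAs (5.71%). mmu-miR-185-5p was among them, whereas mmu-miR-501-3p and mmu-miR-140-3p were not, because their ratios at 2 h were 0.93 and 0.85. The count used the deposited size factors and was not made on other scalings. Total-count scaling moved the median ratio of all miRNAs at 24 h by -0.44, so both the count and its members, mmu-miR-185-5p included, depend on the scaling. Of the 20, 6 were let-7 or miR-98 miRNAs, and the 5 most abundant were let-7g-5p, let-7c-5p, let-7a-5p, miR-31-5p and let-7d-5p. Here 17 of the 20 were 5p arms, beside 170 of all 350, and mmu-miR-185-5p is a 5p arm while mmu-miR-501-3p and mmu-miR-140-3p are 3p arms.

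Over the 12 libraries the log2 normalized counts of the 3 miRNAs followed each other, with Pearson r of 0.940 between mmu-miR-185-5p and mmu-miR-501-3p, 0.930 between mmu-miR-501-3p and mmu-miR-140-3p, and 0.903 between mmu-miR-185-5p and mmu-miR-140-3p. These and the following r values describe 12 points in 6 groups that share libraries and size factors, and the nuclear libraries among them chose the 3 miRNAs. The miRNAs most like mmu-miR-185-5p were miR-31-5p (r = 0.991), miR-103-3p (r = 0.962) and miR-320-3p (r = 0.961). The pattern of mmu-miR-501-3p was closest to that of miR-1839-5p (r = 0.970), miR-542-3p (r = 0.963) and miR-31-5p (r = 0.955). The pattern of mmu-miR-140-3p was closest to that of miR-30a-5p (r = 0.979), miR-1839-5p (r = 0.971) and miR-542-3p (r = 0.966). miR-31-5p, the nearest to mmu-miR-185-5p, had 46175 and 44767 nuclear normalized counts at 0 h against 6012 and 5307 at 24 h, the lowest nuclear change of the 350, with 5453 and 5575 in the cytoplasm at 0 h and 5505 and 6970 at 24 h.

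Reads per read of one another show where the 3 differ. mmu-miR-185-5p had 2.39 and 2.05 reads per read of mmu-miR-501-3p in the nucleus at 0 h, 3.13 and 3.07 at 2 h, and 1.53 and 1.59 at 24 h. mmu-miR-140-3p had 33.0 and 40.2 reads per read of mmu-miR-501-3p in the nucleus at 0 h, against 47.8 and 43.8 at 24 h. At 24 h the nuclear ratio of mmu-miR-185-5p to mmu-miR-501-3p was thus at its lowest, and that of mmu-miR-140-3p to mmu-miR-501-3p at its highest.

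The other arm of the hairpin was measured for 2 of the 3 miRNAs, miR-140-5p and miR-501-5p, and was not chosen by any value. The arms of the miR-140 hairpin had nuclear changes of opposite sign at 24 h. miR-140-5p had 5284 and 4489 nuclear normalized counts at 0 h, 7393 and 5761 at 2 h, and 6934 and 6143 at 24 h. Its groups of 0 h and 24 h did not overlap, an order that was not counted over all miRNAs, and nothing is read from it. The log2 difference of 0.42 (SE 0.17, limma adjusted p = 0.059) was not called. In the cytoplasm miR-140-5p had 4387 and 3718 normalized counts at 0 h and 3262 and 3633 at 24 h (-0.23, SE 0.18, limma adjusted p = 0.321).

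Within each library, mmu-miR-140-3p had 12.8 and 19.9 reads per read of miR-140-5p in the nucleus at 0 h, 8.24 and 9.91 at 2 h, and 4.86 and 5.24 at 24 h. In the cytoplasm this ratio was 7.08 and 8.59 at 0 h, 7.45 and 12.2 at 2 h, and 8.69 and 7.58 at 24 h. Nuclear groups of this ratio did not overlap with each other, and the ratio needs no size factor, while the cytoplasmic groups overlapped. How often this order occurs in other hairpins was not counted. The change of the 3p arm minus that of the 5p arm at 24 h was -1.66 on the log2 scale in the nucleus and 0.06 in the cytoplasm. The nuclear value is low in part by choice, since the fall of the 3p arm chose mmu-miR-140-3p, so it is a description and is not ranked among other hairpins.

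The arms of the miR-501 hairpin both went down in the nucleus, and the 5p arm is shown because its seed is another one than that of mmu-miR-501-3p.
mmu-miR-501-5p: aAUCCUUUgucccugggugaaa
miR-501-5p is rare, with nuclear normalized counts of 66.2 and 70.6 at 0 h, 24.7 and 43.6 at 2 h, and 15.7 and 15.6 at 24 h, and its lowest library held 10 reads. The authors removed rare miRNAs, and 10 reads was the lowest count kept in any library. It was called lower in the nucleus at 24 h, by -2.06 (SE 0.33, limma adjusted p = 0.000173), and without either nuclear library of 24 h the adjusted p was 0.0134 or 0.0139, the highest over its 16 alternatives, which began at 2.91e-08. In the cytoplasm it had 13.8 and 11.96 normalized counts at 0 h and 21.9 and 22.6 at 24 h (0.74, SE 0.38, limma adjusted p = 0.123). mmu-miR-501-3p had 30.8 and 31.5 reads per read of miR-501-5p in the nucleus at 0 h, 79.8 and 36.9 at 2 h, and 44.9 and 47.2 at 24 h. Between the arms the nuclear change at 24 h differed by 0.50.

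**Figure D4:**
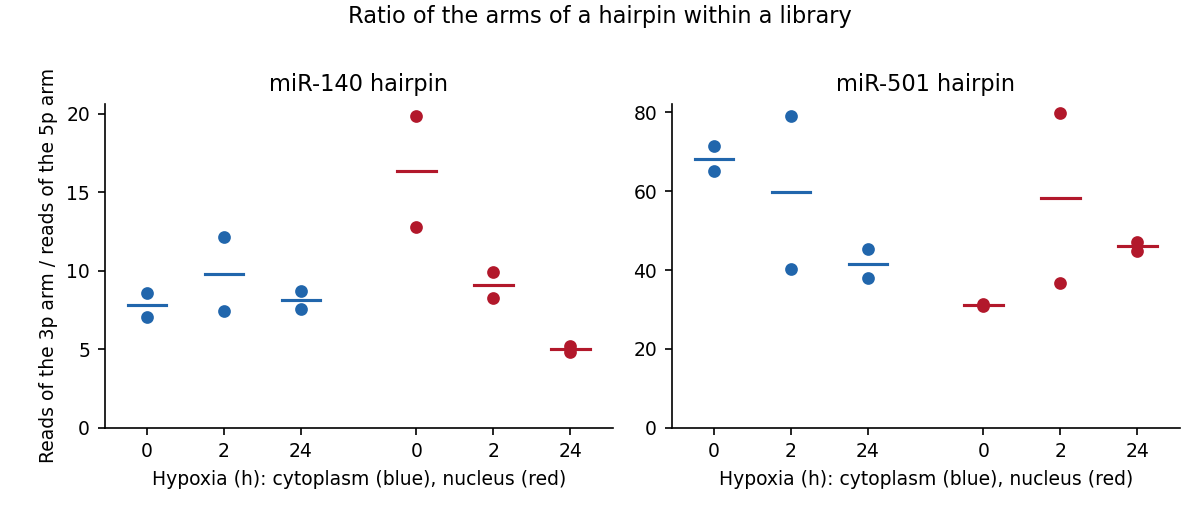
Reads of the 3p arm divided by reads of the 5p arm (y axis, linear, from 0) for the miR-140 and miR-501 hairpins against hours of hypoxia, cytoplasm in blue and nucleus in red. Points are libraries and bars the mean of 2; the nuclear ratio of miR-140 goes from 12.8 and 19.9 at 0 h to 4.86 and 5.24 at 24 h, whereas that of miR-501 goes from 30.8 and 31.5 to 44.9 and 47.2.

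mmu-miR-501-3p comes from a cluster of miRNA hairpins in introns of Clcn5, a gene of the chloride channel family, of which 7 miRNAs were measured. Besides both arms of miR-501 these were miR-188-5p, both arms of miR-362 and both arms of miR-532. The 2 arms of miR-362, the hairpin next to Mir501 among those placed here (chrX:7241982-7242046), differed by 0.74 in nuclear log2 change at 24 h. The median size of this difference over 86 hairpins was 0.62, so the gap is an ordinary one. Both sequences are shown.
mmu-miR-362-5p: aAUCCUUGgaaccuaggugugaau
mmu-miR-362-3p: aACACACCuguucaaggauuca
Of the 6 cluster miRNAs other than mmu-miR-501-3p, 1 was called lower in the nucleus at 24 h (miR-501-5p) and none higher, beside 13.1% lower and 7.71% higher over the 350, so the count is near that of all miRNAs. miR-362-5p had nuclear normalized counts of 1019 and 1278 at 0 h and 615 and 645 at 24 h, a log2 difference of -0.86 (SE 0.18, limma adjusted p = 0.00153) that passed the adjusted p but not the 2-fold limit. It was also called higher in the nucleus than in the cytoplasm at 2 h, by 1.01 (SE 0.19, limma adjusted p = 0.000158), a difference at the 2-fold limit that fell to 0.60 with miR-21a-5p left out of the total. miR-188-5p and miR-362-3p were not called in the nucleus at 24 h, with differences of 0.19 and -0.11. In the cytoplasm miR-188-5p was called lower, from 59.8 and 57.4 to 21.9 and 33.2 normalized counts, and miR-362-3p higher, from 34.0 and 27.1 to 72.9 and 60.4. Each of these calls was lost under 6 of 16 alternatives, 2 of them with a library left out for miR-188-5p and 3 for miR-362-3p. The highest limma adjusted p, 0.182 and 0.103, came without the first cytoplasmic library of 24 h. miR-532-5p, the most abundant of the cluster, had 12883 and 11727 nuclear normalized counts at 0 h and 11626 and 13286 at 24 h, with overlapping groups and a log2 difference of 0.02 (SE 0.15).

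The difference in 24 h change between nucleus and cytoplasm was tested for the miRNAs beside the 3, over all 12 libraries, and passed an adjusted p under 0.05 for 162 of 350 miRNAs (46.3%). It passed for 4 of the 6 other miRNAs of the Clcn5 introns, with -2.81 for miR-501-5p, -1.15 for miR-362-5p, -1.22 for miR-362-3p and 1.28 for miR-188-5p, and for miR-140-5p with 0.65, so it passed for 5 of 8 related miRNAs with miR-497b counted, and nothing particular to them is read from this count. The pass was lost for miR-140-5p under 8 of 21 alternatives, for miR-362-3p under 5 of 20 and for miR-188-5p under 4 of 20.

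miR-497b, the measured miRNA with the seed of mmu-miR-140-3p, was rare and was not called lower in the nucleus at 24 h. Its nuclear normalized counts were 15.2 and 16.2 at 0 h, 59.1 and 15.6 at 2 h, and 44.8 and 34.2 at 24 h. Both libraries of 24 h were thus above both of 0 h, an order that was not counted over all miRNAs. The values of 0 h rest on 11 reads in each library, near the lowest count kept by the authors, 10. The log2 difference was 1.27 (SE 0.47, limma adjusted p = 0.0367), opposite in sign to that of mmu-miR-140-3p and not called.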

How the data were processed

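Small RNA from C166 nuclear and cytoplasmic fractions was sequenced from equal RNA input. Per the labels and the study's methods, the authors converted base calls with bcl2fastq, trimmed with Trimmomatic, aligned to miRBase release 20 with Bowtie2 2.1.0 and removed rare miRNAs. The signal values the authors deposited are counts divided by 1 DESeq2 size factor per library. The 30 deposited columns of the authors' comparisons (mean, log2 fold change, error, statistic, p-values) were not used. Multiplied by a size factor, 100% of values came within 0.01 of whole reads (lowest 10). A suffix for merged names was removed from 32 names.

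Each fraction was fitted over its 6 libraries, and nucleus against cytoplasm over all 12, with limma 3.58.1 (R 4.3.3) on log2(normalized count + 1) with a variance trend, without a filter. For the 3 miRNAs, no p is given for comparisons of the nuclear libraries of 0 h or 24 h, which chose them. limma-voom on recovered reads called 50 (cytoplasm 24 h), 73 (nucleus 24 h) and 125 (2 h) miRNAs. The named miRNAs are the 3, their other arms, the Clcn5 introns, shared seeds, the 3 most alike by r and the references. Members and lists were chosen with earlier results of these data known, and the test of the difference between fractions was added after seeing the data. Alternatives were pseudocounts of 0.5 and 10, a mean of at least 100, 3 scalings, size factors within a fraction, all 12 libraries, a replicate block, limma-voom, an adjusted p under 0.05 and leaving out each library. The fit was tested on simulated data. Tables and figures used Python 3.11.15, pandas 2.3.3, numpy 2.4.6, scipy 1.17.1 and matplotlib 3.10.9.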

Additional observations from a re-analysis of the deposited data

Results flagged for a closer look

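The 24 h change in the nucleus differed from that in the cytoplasm, by the limma interaction over 12 libraries added after seeing the data, for 5 of 8 miRNAs related to the 3 by hairpin, cluster or seed, beside 162 of all 350 (46.3%). The difference (nucleus minus cytoplasm, log2) was -2.81 for miR-501-5p (adjusted p = 0.000342), -1.15 for miR-362-5p (adjusted p = 0.00257) and -1.22 for miR-362-3p (adjusted p = 0.0216). It was 1.28 for miR-188-5p (adjusted p = 0.0141) and 0.65 for miR-140-5p (adjusted p = 0.0421). The pass was lost for miR-140-5p under 8 of 21 alternatives (adjusted p up to 0.59), for miR-362-3p under 5 of 20 (up to 0.0972) and for miR-188-5p under 4 of 20 (up to 0.112), whereas those of miR-501-5p and miR-362-5p held under the alternatives run. For mmu-miR-185-5p it was -2.57, where both nuclear libraries of 24 h lay below both of 0 h and both cytoplasmic libraries of 24 h above both of 0 h, and this difference was not tested. The nuclear order was found for 131 of the 350 (37.4%) and comes from the libraries that chose mmu-miR-185-5p, and the cytoplasmic order was found for 117 (33.4%).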

How the results depend on the processing

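The 3 miRNAs kept the direction of their nuclear change at 24 h under all alternatives, with -2.23 to -1.61 for mmu-miR-185-5p, -1.73 to -1.11 for mmu-miR-501-3p and -1.40 to -0.78 for mmu-miR-140-3p across other settings. The lower sizes came from a total that leaves out miR-21a-5p, which gave -1.61, -1.11 and -0.78, and the higher ones from scaling to miR-186-5p, which gave -2.23, -1.73 and -1.40. These scalings shift all miRNAs of a library alike, and moved the median of all miRNAs in the nucleus by 0.45 and -0.16. Scaling to the total count gave mmu-miR-140-3p 0.25, miR-140-5p 0.20, miR-497b 0.27 and miR-532-5p 0.0042 in the cytoplasm at 24 h, opposite in sign to the reported values, and scaling to miR-186-5p gave 0.14, 0.0803 and 0.15 for the first 3. Scaling to miR-186-5p also gave miR-532-5p -0.15 in the nucleus and -0.0367 for the difference between fractions, and left 16 calls in the cytoplasm at 24 h in place of 48. The total that leaves out miR-21a-5p gave miR-362-3p 0.34 and miR-532-3p 0.24 in the nucleus.

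With 1 library left out, the remaining one of its group is assumed to vary like the other groups. Calls in the cytoplasm at 2 h then ranged from 0 to 9 (9 without the second library of 0 h). Nuclear calls at 24 h other than the 3 miRNAs ranged from 15 (without replicate 1 of 24 h) to 83 (without replicate 1 of 0 h), beside 70, and were 22 or 40 when replicate 2 of 24 h or of 0 h was left out. mmu-miR-501-3p ranged from -0.031 to 0.18 in the cytoplasm at 24 h and from 0.78 to 1.08 between fractions at 2 h. mmu-miR-140-3p ranged from -0.14 to 0.24 in the cytoplasm at 2 h and from 0.67 to 1.04 between fractions at 2 h. In the nucleus at 24 h, miR-188-5p ranged from -0.10 to 0.48 and miR-532-5p from -0.0804 to 0.11. Between fractions at 2 h, miR-532-5p ranged from -0.39 to 0.28, miR-532-3p from -1.04 to 0.19 and miR-497b from -0.47 to 1.39, and miR-497b ranged from -0.85 to 0.55 in the cytoplasm at 24 h.

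With the replicate number as a block, 50 miRNAs were called in the cytoplasm at 24 h and 66 other miRNAs in the nucleus. Nothing in the labels says that a replicate number marks a shared culture. Correlations of same-numbered deviations from the group means ranged from -0.225 to 0.319, and were 0.067, 0.239 and 0.094 between the fractions of 1 time. Whether both fractions came from 1 culture is not known. With such a culture as the block, 127 miRNAs were called between fractions at 2 h, beside 125. The block changed no call of the 3 miRNAs in the cytoplasm or at 2 h. The remaining alternatives kept the side of the threshold for the 3 miRNAs. With 2 libraries a group, differences within 2 SE of 0 cannot be resolved, and rare miRNAs such as miR-501-5p rest on as few as 10 reads.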
